A study of Arabidopsis thaliana with 18 samples.

Results

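The response of Arabidopsis plants to ultraviolet light was examined in sng1, a mutant impaired in the synthesis of sinapoyl malate. The comparison set the 3 arrays of sng1 plants under ultraviolet light (sng1_UV) against the 3 arrays of sng1 plants under continuous light (sng1_CO), 6 of the 18 arrays of the series. The series holds the same pair of light groups for the wild type Col-0 (WT) and for tt4, a mutant impaired in flavonoid biosynthesis, with 3 plants in each group. The sng1 plants are in the Col-0 background, and the allele is not given in the labels. Every array carries RNA from the aerial region of 1 single plant that was 18 days old. For 17 days the plants were kept at 22 °C on a solidified medium that held 1% sucrose, and each day had 16 light hours and 8 dark hours. On day 18 they received 24 h of ultraviolet light, which the series title names UV-B, or 8 h of additional light. Whether the UV plants also had the additional visible light is not stated, so a change under UV here means sng1_UV against sng1_CO and cannot be told apart from a difference in visible light. Both groups were collected 6 h into the bright phase.

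Sinapoyl malate is a phenylpropanoid ester that accumulates in the epidermis of Arabidopsis leaves, where it absorbs ultraviolet light together with flavonol glycosides. It is made from sinapate in a pair of steps: a UDP-glycosyltransferase of the UGT84A group forms sinapoylglucose, and the SNG1 enzyme, a serine carboxypeptidase-like acyltransferase, moves the sinapoyl group to malate. Plants without SNG1 activity keep sinapoylglucose and lack the malate ester. UV-B is perceived by the photoreceptor UVR8, and the transcription factors HY5 and HYH act downstream of it on genes of flavonoid synthesis and protection.

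Signals are given on the log2 scale after normalization, with a floor of 4 for dim probe sets. For each gene the values of plants 1, 2 and 3 under UV come before those of plants 1, 2 and 3 in CO. A probe set is called changed at an adjusted p under 0.05 (limma, Benjamini-Hochberg over all 22746 probe sets), and the standard error (SE) is that of the difference with n = 3 in each group. Within each of these light groups the arrays correlated at 0.985 or more. SNG1 and TT4 have no named probe set in the annotation used here, so the genotype was not analysed by its own transcript. A listed gene counts as measured where the annotation names it as the only gene of a probe set. Other members may lie on probe sets without a listed gene. The lists given by locus held 476 entries, and 88 probe sets of their members were measured. The root hair genes EXPA7 and EXPA18, the only root markers measured, lay between 4 and 5.43 on all 6 arrays, with a summed linear signal of 38.8 to 50.4 under UV and 44.3 to 67.1 in CO. LHCB4.1, a light-harvesting protein of green tissue, lay between 14.05 and 14.24. No marker listed for flowers, seeds, epidermis or vascular tissue was on a named probe set. RNA integrity was read from control transcripts as 3′ signal over 5′ signal (log2, mean ± SD of 3 arrays). For actin it was 2.91 ± 0.11 in the UV arrays and 2.45 ± 0.09 in the CO arrays, and that of a second actin control was 0.966 ± 0.025 and 0.754 ± 0.061. GAPDH had a ratio of 0.266 ± 0.166 in UV arrays and 0.504 ± 0.024 in CO arrays, and for a second GAPDH control 0.051 ± 0.037 and 0.018 ± 0.034. The first 3 of these ratios did not overlap between the light groups, although 3 arrays against 3 allow no exact permutation p below 0.1, and their part in the results below was not tested. In such whole-tissue samples, fewer cells of a type and less RNA per cell cannot be told apart.

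Under UV, 5350 of the 22746 probe sets were called changed in sng1, or 23.5%, and 33.8% had an unadjusted p under 0.05. Of these, 2701 were higher (11.9% of all probe sets) and 2649 lower (11.6%). The median change over all probe sets was 0.00. At least 2-fold changes were found among 743 of the higher and 637 of the lower probe sets, together 6.07% of all. Larger changes were more often rises: 174 probe sets rose and 49 fell at least 4-fold, and 50 rose and 3 fell at least 8-fold. The arrays of the light groups did not overlap for 9351 probe sets (41.1%). Of the called probe sets, 2849 have 1 gene in the annotation, 106 have several and 2395 are not listed, so much of the response is unnamed here.

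The 15 largest rises among named genes were all of genes known in the annotation by locus number. AT3G48640 rose most, from 4.40, 5.30 and 4.97 in CO to 10.44, 9.84 and 9.79 under UV, a change of 5.13 ± 0.56 (35.0-fold, adjusted p = 6.37e-05). Its neighbour by locus number, AT3G48650, read 8.52, 8.01 and 7.99 under UV and 4.27, 5.30 and 5.32 in CO (3.21 ± 0.45, adjusted p = 0.000311). All UV plants lay above all CO plants for both genes. AT3G28580 read 8.93, 8.52 and 8.62 against 4.35, 4.87 and 4.94 (3.97 ± 0.41, adjusted p = 4.74e-05), and AT5G62210 read 9.28, 9.61 and 9.49 against 5.78, 5.34 and 5.42 (3.95 ± 0.29, adjusted p = 5.34e-06). AT1G33860 had the smallest adjusted p of the 15, with 7.53, 8.08 and 7.58 under UV and 4.36, 4.99 and 4.43 in CO (3.14 ± 0.19, adjusted p = 1.13e-06). AT5G58840 was at the floor in all CO plants and read 7.73, 7.85 and 7.19 under UV, at least 12.1-fold higher (adjusted p = 0.000169). With a floor of 64 in place of 16 on the linear scale, the changes of AT5G58840 and AT1G33860 were 1.59 and 1.73, both still called.

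Of the 15 largest falls, 6 were of genes with a symbol. IAA29, an Aux/IAA repressor of auxin responses known for its rise in shade, fell from 8.08, 7.85 and 7.72 in CO to 6.26, 4.0 and 4.29 under UV, a change of -3.04 ± 0.54 (adjusted p = 0.00155). Plant sng1_UV 2 was at that floor, and raising the floor to 64 gave a change of -1.80. BZIP61, a transcription factor of the basic leucine zipper family, read 6.88, 5.73 and 5.87 under UV and 8.89, 9.27 and 9.40 in CO (-3.03 ± 0.49, adjusted p = 0.000833). GSTU18, a glutathione transferase of the tau class, had 7.67, 7.67 and 7.94 against 9.76, 10.12 and 9.84 (-2.15 ± 0.17, adjusted p = 6.69e-06). DRT100, named for DNA-damage repair and toleration, was lower under UV as well, at 8.41, 8.32 and 8.46 against 10.10, 10.69 and 10.57 (-2.06 ± 0.24, adjusted p = 9.55e-05). The plants of the light groups were apart for all 4 of these genes, with the UV plants below.

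**Figure D1:**
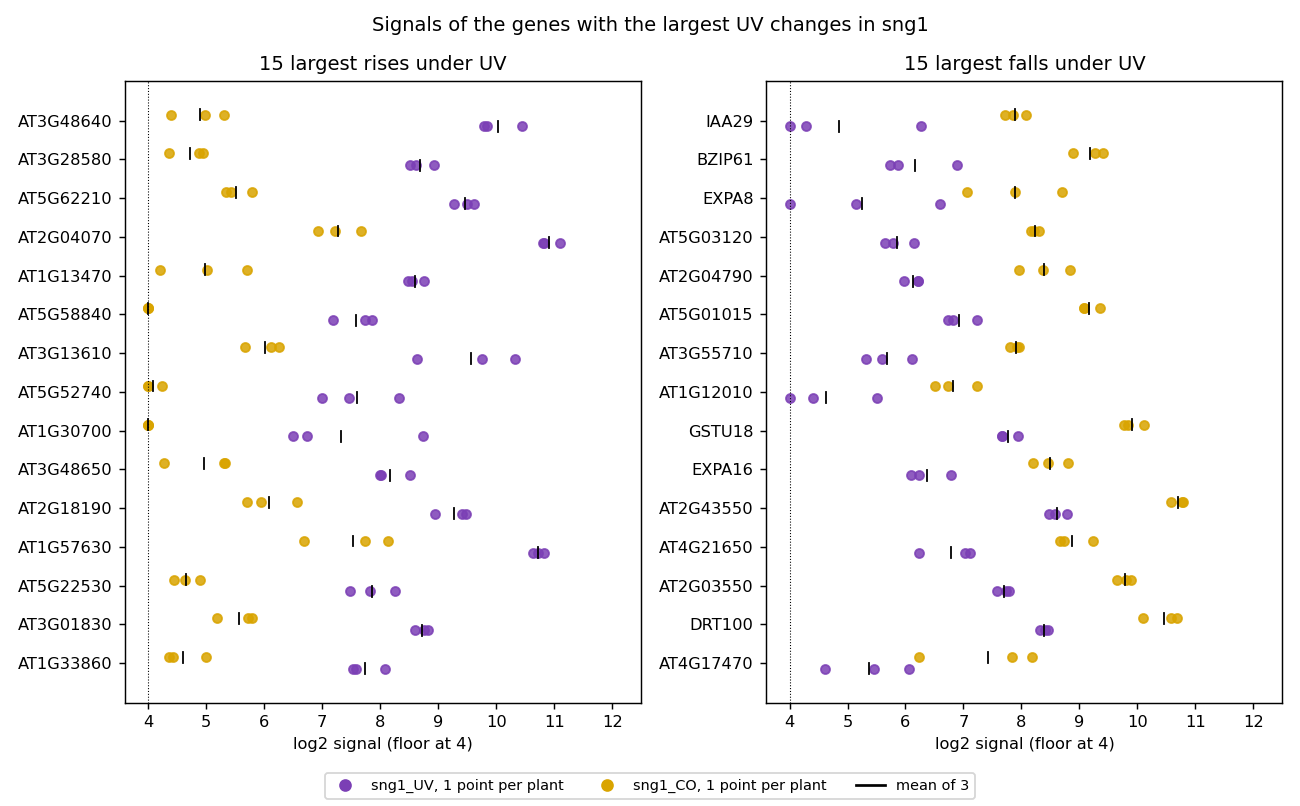
Log2 signal (x axis, floor at 4) of each sng1 plant for the 15 genes with the largest rises (left) and the 15 with the largest falls (right) under UV. Each point is 1 plant and each bar the mean of 3; AT3G48640 lies between 4.40 and 5.30 in CO and between 9.79 and 10.44 under UV, and IAA29 lies between 7.72 and 8.08 in CO and between 4.0 and 6.26 under UV.

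Among the measured genes of sunscreen synthesis, rises were found for a sinapate glycosyltransferase and for 4 flavonoid genes. Of the entries listed, 4 of 8 for sinapate esters and 5 of 14 for flavonoids were measured. UGT84A1, one of the glycosyltransferases that join glucose to sinapate and related acids, was at the floor in all CO plants and read 7.18, 7.15 and 6.73 under UV. It was thus at least 8.13-fold higher (3.02 ± 0.22 over the floor, adjusted p = 5.2e-06), and with a floor of 64 the change was 1.02. Its neighbours in the genome read otherwise: UGT84A3 had 10.50, 10.63 and 10.40 against 10.05, 9.66 and 9.95 (0.63 ± 0.23, adjusted p = 0.0681), and UGT84A4 had 5.85, 5.99 and 6.38 against 6.43, 6.40 and 6.39 (-0.33 ± 0.12, adjusted p = 0.0634). ALDH2C4 (REF1), the aldehyde dehydrogenase that makes sinapate and ferulate, changed by 0.19 ± 0.14 (adjusted p = 0.376). Of the 4 measured genes of sinapate ester synthesis, 1 was called higher and none lower, and 1 was called lower without sng1_UV 3. Over all probe sets 11.9% were called higher and 11.6% lower, so a single call says little about the list. These UGT84A genes are related members of 1 group, and whether probe sets take up signal from a neighbour was not tested.

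In the flavonoid list 4 of 5 measured members were called higher and none lower, with a median change of 1.23. Over all probe sets 11.9% were called higher. The count in the list was 3 without sng1_UV 2 and without any 1 of the CO arrays. CHIL, a chalcone isomerase-like protein that aids flavonoid production, read 8.43, 7.93 and 7.94 under UV and 5.64, 5.80 and 4.0 in CO (2.96 ± 0.37, adjusted p = 0.000155). Plant sng1_CO 3 was at the floor and all CO values lay below the floor of 64, so the size of this rise depends on the floor. AT1G06000, which entered the list by its locus, read 9.99, 9.54 and 9.98 against 6.98, 7.21 and 6.78 (2.85 ± 0.17, adjusted p = 7.92e-07). UGT78D2, which adds glucose to flavonols and anthocyanidins, read 9.29, 9.46 and 9.17 against 8.08, 8.08 and 8.06 (1.23 ± 0.17, adjusted p = 0.000311). In contrast, UGT78D1, which adds rhamnose to flavonols, read 8.63, 8.32 and 8.49 against 8.38, 8.60 and 8.66, and its groups overlapped (-0.06 ± 0.16, adjusted p = 0.903). The call of UGT78D3, a flavonol arabinosyltransferase at the floor in all CO plants (adjusted p = 0.0213), ended without sng1_UV 2 (adjusted p = 0.0961) and without any 1 of the CO arrays (0.0538 to 0.0586), and its change was 0 with a floor of 64. No member of the anthocyanin branch was called out of 4 measured, and DFR, its first committed enzyme, read 7.59, 7.69 and 7.96 against 7.88, 6.68 and 7.32 (0.45 ± 0.51, adjusted p = 0.632).

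In other branches of phenylpropanoid metabolism single genes stood out. AT3G13610 (F6'H1), the hydroxylase that leads to the coumarin scopoletin, read 10.32, 8.64 and 9.76 under UV and 6.12, 5.67 and 6.26 in CO (3.56 ± 0.80, 11.8-fold, adjusted p = 0.006). CCOAMT, a caffeoyl-CoA methyltransferase, rose from 6.65, 6.25 and 6.54 to 8.81, 9.14 and 9.40 (2.63 ± 0.50, adjusted p = 0.0023). UGT72E1, which adds glucose to monolignol aldehydes, was lower under UV at 8.29, 8.48 and 8.72 against 9.36, 9.57 and 9.49 (-0.98 ± 0.16, adjusted p = 0.000848). HCT, an acyltransferase on the way to lignin, had overlapping groups (0.01 ± 0.13, adjusted p = 1). Among the 6 measured genes listed for general phenylpropanoid and monolignol synthesis, which do not include CCOAMT, AT3G13610 was called higher and UGT72E1 lower, or 16.7% in each direction, which is near the 11.9% and 11.6% of all probe sets, and the median was 0.03. In the list of shikimate and aromatic amino acid genes, upstream of the pathway, 2 of 3 measured members were called higher and none lower, against 11.9% of all probe sets called higher. Without sng1_UV 2 the count was 1, since AT1G22410 (0.49, adjusted p = 0.013) then had an adjusted p of 0.0609. AT2G04400 of that list read 12.61, 12.74 and 12.68 under UV and 10.83, 11.09 and 11.29 in CO (1.60 ± 0.23, adjusted p = 0.000345).

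**Figure D2:**
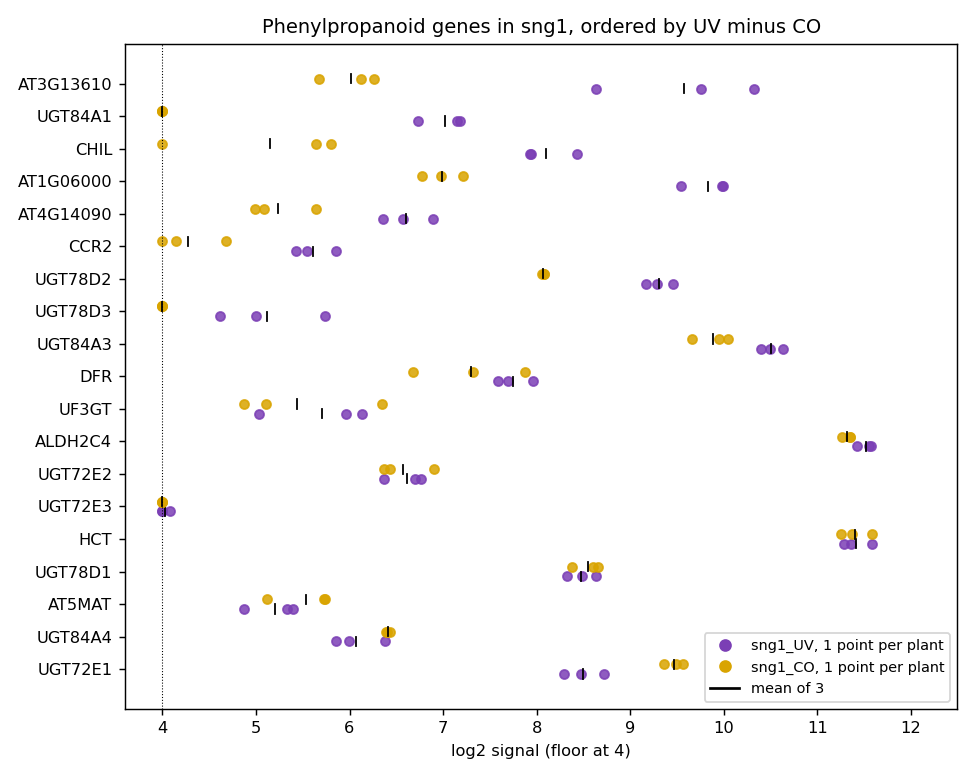
Log2 signal (x axis, floor at 4) of the measured genes of the flavonoid, anthocyanin, phenylpropanoid and sinapate ester lists in the 6 sng1 plants, ordered by the change under UV. Points are plants and bars are means of 3; AT3G13610, UGT84A1, CHIL and AT1G06000 at the top have all UV plants above all CO plants, and the points of HCT and UGT78D1 overlap.

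UDP-glycosyltransferases as a family gave 12 higher and 2 lower calls among 47 measured, with a median change of 0.14. The shares were 25.5% higher and 4.26% lower, against 11.9% and 11.6% of all probe sets. With any 1 of the 6 arrays left out, the higher count was 9 to 11 and the lower count 2 to 3. UGT84A1 and UGT72E1, described above, are counted here again. The family joins sugars to many small molecules, phenylpropanoids, hormones and foreign compounds among them. UGT73B4 read 9.17, 9.04 and 8.49 under UV and 6.27, 6.30 and 6.42 in CO (2.57 ± 0.29, adjusted p = 8.23e-05), and its neighbour UGT73B5 read 9.40, 9.39 and 9.32 against 8.25, 8.11 and 8.04 (1.24 ± 0.22, adjusted p = 0.00141). UGT76D1 rose from 4.38, 4.64 and 4.56 to 6.39, 6.73 and 6.46 (2.00 ± 0.20, adjusted p = 3.99e-05), and with a floor of 64 by 0.53. UGT71B6, which glucosylates abscisic acid, rose from 5.60, 5.60 and 6.15 to 8.06, 7.93 and 7.92 (2.19 ± 0.38, adjusted p = 0.00125). The UV plants were above the CO plants for each of these. UGT76C1, which adds glucose to cytokinins, went the other way (-0.68 ± 0.15, adjusted p = 0.00541). Cytochromes P450 gave 2 higher and no lower calls among 23 measured, and the higher count was 1 without any 1 array other than sng1_UV 3, so the higher share is near or below that of all probe sets.

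The UV-B transcription factor HYH rose from 5.12, 5.48 and 5.15 to 7.33, 7.39 and 6.99 (1.99 ± 0.37, 3.97-fold, adjusted p = 0.00185), and by 1.24 with a floor of 64. It was the only member of the UV-B signalling list, which has 12 entries, with a named probe set. ATLIG4, the DNA ligase of non-homologous end joining, rose from 6.92, 7.29 and 7.36 to 7.82, 7.95 and 7.84 (0.68 ± 0.11, adjusted p = 0.000917). POLH, a DNA polymerase that copies past UV lesions, read 5.60, 6.21 and 5.74 under UV and 6.36, 5.83 and 5.86 in CO, with overlapping groups (-0.17 ± 0.49, adjusted p = 0.932).

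Genes that mark oxidative stress were higher in 5 of 6 measured members and lower in none, against 11.9% of all probe sets called higher. The list had 11 entries, and the median change was 2.63. Its higher count was 4 without any 1 of the UV arrays and without sng1_CO 2. AT2G04070 rose from 7.22, 7.66 and 6.92 to 10.83, 11.10 and 10.81 (3.65 ± 0.37, adjusted p = 4.07e-05), and AT2G04050, with a locus number near to it, from 8.68, 8.81 and 8.11 to 11.31, 11.56 and 11.21 (2.83 ± 0.58, adjusted p = 0.00354). AT2G21640 rose from 8.62, 9.16 and 8.77 to 11.48, 11.21 and 11.17 (2.44 ± 0.33, adjusted p = 0.000242). Of 5 measured antioxidant enzymes, out of 19 listed, 2 were called higher and 1 lower, against 11.9% and 11.6% of all probe sets. GR1, the cytosolic glutathione reductase, rose from 10.36, 10.32 and 10.30 to 12.08, 12.32 and 11.98 (1.80 ± 0.25, adjusted p = 0.000323). TAPX, the ascorbate peroxidase of thylakoids, fell from 10.60, 10.76 and 10.59 to 9.79, 9.29 and 9.47 (-1.13 ± 0.21, adjusted p = 0.00212). The other call was that of GR, a glutathione reductase of organelles, at 0.29 (adjusted p = 0.0458), which ended without any 1 of the arrays other than sng1_UV 1 (0.0698 to 0.180).

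Rises were also found for genes induced by salicylic acid. GRX480, a glutaredoxin induced by salicylic acid, read 8.35, 8.03 and 8.16 under UV and 6.36, 6.12 and 5.75 in CO (2.11 ± 0.48, adjusted p = 0.00687). WRKY6, a transcription factor of senescence and defence, rose from 7.76, 7.48 and 7.32 to 8.97, 9.43 and 9.09 (1.64 ± 0.23, adjusted p = 0.00037). It was 1 of 2 measured members of the senescence list, and the other, SAG29, read 4.0, 8.33 and 6.07 under UV and 9.16, 5.19 and 6.36 in CO (-0.77 ± 1.99, adjusted p = 0.911). All 3 measured members of the salicylic acid list, which has 23 entries, were called higher, against 11.9% of all probe sets. The count dropped to 1 without sng1_UV 3, sng1_CO 1 or sng1_CO 2. WRKY53 (1.64 ± 0.49, adjusted p = 0.0268) had adjusted p values of 0.0690, 0.102 and 0.0642 in those fits, and SAG101 (0.89 ± 0.27, adjusted p = 0.0285) had 0.0735, 0.0818 and 0.0875. The call of WRKY53 also ended without sng1_UV 1 (adjusted p = 0.0847), and that of SAG101 without sng1_UV 2 (adjusted p = 0.0937). Neither of 2 measured jasmonate genes was called. PDF1.2, a plant defensin, read 10.60, 11.11 and 12.11 under UV and 9.53, 11.11 and 11.54 in CO, so its spread between plants was wider than the difference (0.55 ± 0.72, adjusted p = 0.698).

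The unfolded protein response of the endoplasmic reticulum (ER) showed smaller rises with little spread. BZIP60, a transcription factor that activates this response, read 11.02, 10.91 and 11.11 under UV and 9.99, 10.00 and 9.86 in CO (1.06 ± 0.18, adjusted p = 0.000917). ATERDJ3B, a chaperone of the ER lumen, read 11.47, 11.41 and 11.71 against 10.61, 10.57 and 10.44 (0.99 ± 0.16, adjusted p = 0.000894). BZIP28, a membrane-bound factor of the same response, changed by 0.39 ± 0.06 (adjusted p = 0.000796), and BZIP17 by 0.12 ± 0.09 (adjusted p = 0.356). The list, with 13 entries, thus had 3 of 4 measured members higher and none lower, against 11.9% of all probe sets called higher. Neither of 2 measured heat shock genes was called.

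The lists of photosystem, Calvin cycle and chlorophyll genes each had lower calls and no higher call. PRK, the phosphoribulokinase of the Calvin cycle, read 12.23, 12.02 and 12.19 under UV and 13.07, 13.25 and 13.06 in CO (-0.98 ± 0.14, adjusted p = 0.000357). SBPASE, the sedoheptulose bisphosphatase of that cycle, read 11.62, 11.96 and 12.09 against 12.76, 12.96 and 12.68 (-0.91 ± 0.17, adjusted p = 0.00182). RCA, which activates Rubisco, changed by -0.13 ± 0.06 (adjusted p = 0.136), so 2 of 3 measured Calvin cycle genes were called lower. For LHCB4.1 of the antenna the change was -0.12 ± 0.07 (adjusted p = 0.232). Of 6 measured nuclear genes of photosystems and antenna, 2 were called lower, against 11.6% of all probe sets, and the median was -0.14. The count was 1 without sng1_UV 1, sng1_UV 3, sng1_CO 1 or sng1_CO 2, where the call of ATPC1, a subunit of the ATP synthase at -0.16, ended (adjusted p = 0.0765 to 0.0953). PSAN, a lumenal subunit of photosystem I, fell from 13.24, 13.44 and 13.42 to 12.51, 12.63 and 12.87 (-0.70 ± 0.13, adjusted p = 0.0017). In chlorophyll metabolism, CHLM, the methyltransferase of the magnesium branch, changed by -0.83 ± 0.21 (adjusted p = 0.0124) and NOL, a chlorophyll b reductase, by -0.64 ± 0.14 (adjusted p = 0.00444), and the other 3 of 5 members were not called.

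Genes of the chloroplast genome fell broadly and by small amounts. Of 69 plastid-encoded genes measured, 35 were called lower and none higher, against 11.6% of all probe sets called lower, and the median change was -0.41. The count was 22 without sng1_CO 3 and 24 to 37 without any other 1 of the 6 arrays, and 1 gene was called higher without sng1_UV 2. The count includes 10 of 15 genes of photosystem II, 2 of 5 of photosystem I, 3 of 6 of the cytochrome b6f complex, 5 of 6 of the ATP synthase, 4 of 10 of the NDH complex, 2 of 4 of the plastid RNA polymerase and 4 of 15 of ribosomal proteins. The smallest adjusted p belonged to cemA, an envelope membrane protein, at 12.57, 12.61 and 12.70 under UV and 13.30, 13.47 and 13.47 in CO (-0.78 ± 0.09, adjusted p = 0.000114). The largest fall was that of atpI, a subunit of the ATP synthase, from 10.41, 10.75 and 10.74 to 9.07, 9.61 and 9.44 (-1.26 ± 0.26, adjusted p = 0.00376). rbcL, the large subunit of Rubisco, read 10.79, 10.99 and 11.03 against 11.60, 11.85 and 11.84 (-0.83 ± 0.15, adjusted p = 0.00204). Plastid genes are transcribed in shared units, so their probe sets do not stand for separate transcripts. All arrays were quantile normalized to a common distribution, in which plastid genes hold a share of the signal. Their values are thus relative to those of the other probe sets. The summed linear signal of the plastid genes was 399844 to 427304 under UV and 465854 to 514990 in CO.

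**Figure D3:**
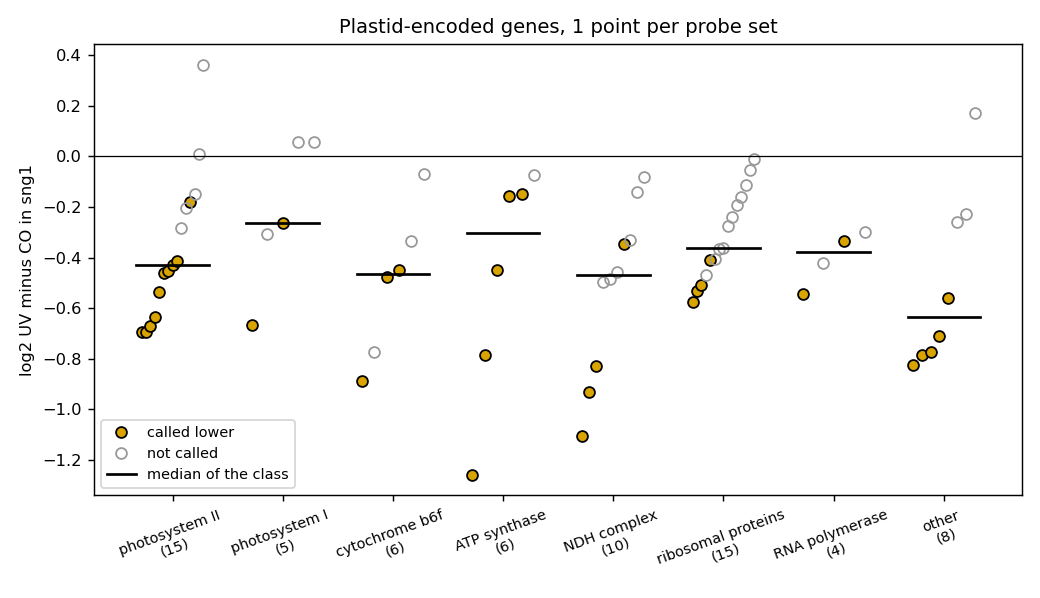
Change under UV in sng1 (y axis, log2 UV minus CO) of the 69 plastid-encoded genes by the complex they belong to, 1 point per probe set. Filled points were called lower, open points were not called, and bars are medians; every class has a median below 0, and atpI at -1.26 lies lowest.

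The nuclear genes of the same NDH complex, which carries electrons around photosystem I, were lower too. Of 8 nuclear genes named for it or for its assembly, 6 were called lower and none higher, with a median change of -0.88. The share called lower over all probe sets was 11.6%. NdhS read 10.68, 10.73 and 10.61 under UV and 11.86, 11.81 and 11.79 in CO (-1.15 ± 0.12, adjusted p = 4.16e-05). NdhN read 9.81, 9.39 and 9.62 against 10.67, 11.18 and 10.93 (-1.32 ± 0.26, adjusted p = 0.00276), and CRR42, an assembly factor, 7.66, 7.47 and 7.24 against 8.87, 8.84 and 8.36 (-1.23 ± 0.24, adjusted p = 0.00274). This group was chosen after its values were seen.

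Cell wall expansion genes had 4 lower calls and none higher among 5 measured, with a median of -1.28, and expansins as a family, which loosen the wall, had 5 lower and none higher among 18, with a median of -0.61, against 11.6% of all probe sets called lower. Xyloglucan endotransglucosylases had 2 lower calls and none higher among 9, and none of 5 measured pectin methylesterases was called. The lower counts of the cell wall expansion list and of the expansins dropped to 2 without sng1_UV 2. That of the expansins dropped to 3 without sng1_CO 2. EXPA16 read 6.23, 6.79 and 6.09 under UV and 8.81, 8.46 and 8.19 in CO (-2.12 ± 0.35, adjusted p = 0.000874). EXLA2, an expansin-like protein, read 4.87, 5.60 and 5.73 against 7.28, 7.04 and 7.74 (-1.95 ± 0.30, adjusted p = 0.000569). EXPA8 had the largest fall of the family, from 7.06, 8.70 and 7.88 to 6.59, 4.0 and 5.15 (-2.63 ± 0.69, adjusted p = 0.0149), and its call ended without sng1_UV 2 (-2.01, adjusted p = 0.0697) and without sng1_CO 2 (-2.22, adjusted p = 0.0682). XTH16, a xyloglucan endotransglucosylase that remodels the wall, read 8.40, 8.10 and 8.68 against 9.42, 9.72 and 9.90 (-1.28 ± 0.25, adjusted p = 0.00231). GH9C2, an endoglucanase, read 7.73, 7.26 and 7.66 against 8.93, 9.08 and 8.86 (-1.41 ± 0.15, adjusted p = 4.74e-05).

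Tubulins, the subunits of microtubules, were lower in 5 of 7 measured genes and higher in none (median -0.76). Over all probe sets 11.6% were called lower. The tubulin count stayed at 5 whichever array was left out. TUB5 read 10.29, 10.11 and 10.16 under UV and 11.22, 11.49 and 11.41 in CO (-1.19 ± 0.17, adjusted p = 0.000362), and TUB6 read 9.92, 10.03 and 9.81 against 10.97, 10.82 and 10.89 (-0.97 ± 0.12, adjusted p = 0.000165). TUA1 alone among the 7 had a change above 0 (0.16 ± 0.07, adjusted p = 0.116), and 1 tubulin was called higher without sng1_CO 3. The beta tubulins (TUB) are close copies of each other, as are the alpha tubulins (TUA), and whether their probe sets share signal was not tested. Genes of RALF-like peptides, small secreted signals that raise the pH of the cell wall, were lower in 5 of 11 and higher in none. This stands against the same 11.6% of all probe sets, and the count was 3 without sng1_UV 2 or sng1_CO 2. RALFL33 fell from 11.01, 11.22 and 11.16 to 9.84, 9.64 and 9.91 (-1.33 ± 0.11, adjusted p = 1.25e-05). None of 3 measured cell cycle genes was called: AUR1, a mitotic kinase, read 7.88, 7.83 and 8.01 under UV and 8.13, 8.57 and 8.44 in CO (-0.48 ± 0.22, adjusted p = 0.149).

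Some genes of stomata were lower as well. Of 3 measured stomatal lineage factors 1 was called lower and none higher, with a median change of -0.03. Over all probe sets 11.6% were called lower. SPCH and MUTE, which act before FMA in the lineage, changed by 0.05 and -0.03 (adjusted p = 1 for both). STOMAGEN, a mesophyll peptide that promotes stomatal development, fell from 9.01, 9.71 and 9.65 to 8.28, 8.00 and 8.00 (-1.36 ± 0.31, adjusted p = 0.00632). FMA (FAMA), the transcription factor of the last step of guard cell formation, fell from 8.31, 8.41 and 8.35 to 7.79, 7.83 and 7.47 (-0.66 ± 0.14, adjusted p = 0.00349). AT1G22690, the only measured member of the guard cell marker list, read 10.51, 9.24 and 10.02 under UV and 11.30, 11.59 and 11.23 in CO (-1.45 ± 0.35, adjusted p = 0.00973). The part of guard cell number in these falls was not tested.

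**Figure D4:**
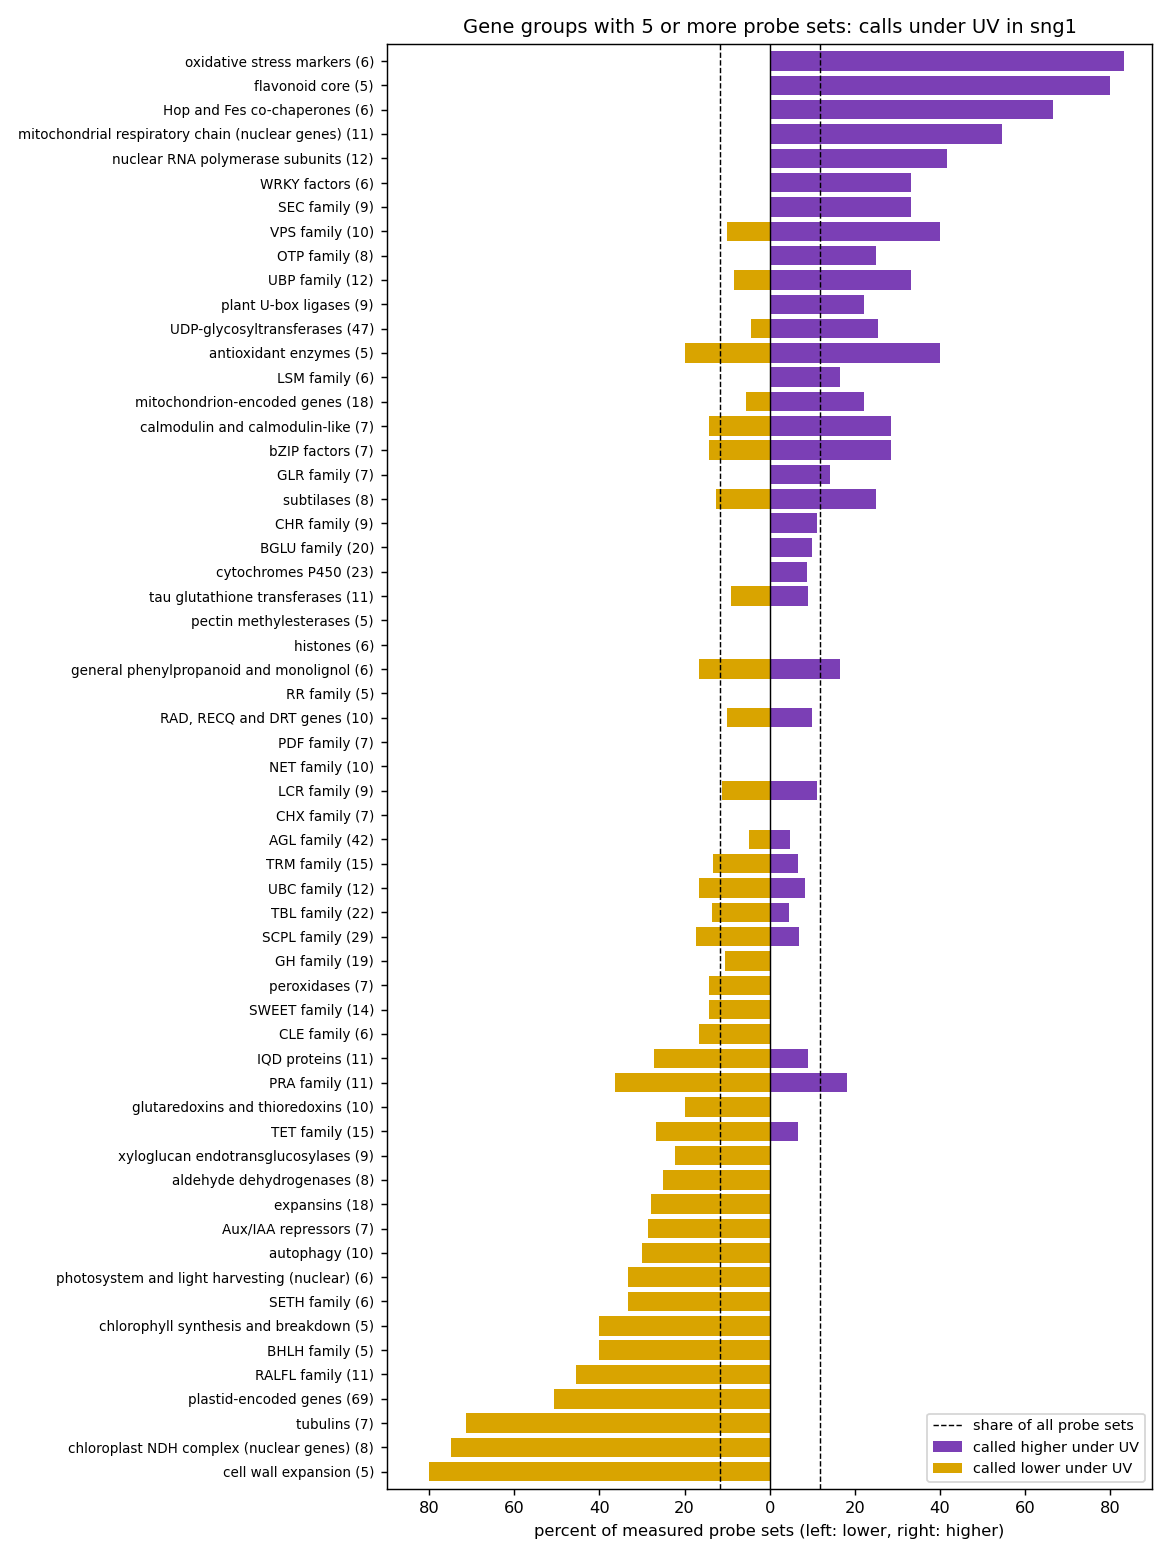
Share of measured probe sets called higher (right) and lower (left) under UV in sng1 for every gene group with 5 or more probe sets, with the number measured in brackets. Dashed lines mark the shares over all probe sets, 11.9% higher and 11.6% lower; families are formed by symbol stem, and a stem can join unrelated genes.

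The serine carboxypeptidase-like family, to which SNG1 belongs, gave 2 higher and 5 lower calls among 29 measured genes, and its median change was -0.04. These are 6.90% and 17.2%, near the 11.9% and 11.6% of all probe sets, and the higher count was 1 without sng1_UV 1, sng1_UV 3, sng1_CO 1 or sng1_CO 3. SCPL27 fell most, from 7.51, 8.00 and 7.61 to 6.53, 6.17 and 6.51 (-1.30 ± 0.22, adjusted p = 0.00111). SCPL43 was called higher, at 5.43, 5.53 and 5.44 under UV and 4.50, 4.67 and 4.80 in CO (0.81 ± 0.14, adjusted p = 0.00146). Both light groups of SCPL43 lay below the higher floor of 64, where its change was 0 and the call ended. Of 3 measured genes of aliphatic glucosinolates, a class of defence compounds made with a UDP-glycosyltransferase, 1 was called higher and 1 lower. The shares over all probe sets were again 11.9% and 11.6%. UGT74B1 rose from 10.35, 10.69 and 10.64 to 11.40, 11.72 and 11.28 (0.91 ± 0.18, adjusted p = 0.0025), and BCAT4, an aminotransferase of methionine chain elongation, read 10.51, 10.39 and 10.97 against 11.65, 12.05 and 11.99 (-1.27 ± 0.43, adjusted p = 0.0463). The call of BCAT4 ended without any 1 of the 6 arrays (adjusted p = 0.0580 to 0.134). Outside the list, AOP1, a dioxygenase related to side-chain modifying enzymes, fell from 7.76, 7.59 and 7.61 to 6.09, 5.92 and 6.12 (-1.61 ± 0.20, adjusted p = 0.000136).

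The UV effect of sng1 was then set against that of WT and tt4, which asks whether impaired sinapoyl malate synthesis went with another response. UV calls numbered 5540 in WT (24.4%) and 6080 in tt4 (26.7%). Of the sng1 calls, 76.3% were also WT calls in the same direction, which is 73.7% of the WT calls, and 2 were WT calls in the opposite direction. In the test of the difference itself, no probe set passed at an adjusted p under 0.05 between sng1 and WT, with 688 (3.02%) at an unadjusted p under 0.05 and a smallest adjusted p of 0.575 (limma). Leaving out 1 sng1 array gave 0 to 3 such calls, with 3 without sng1_UV 2 and 2 without sng1_UV 1. The median half-width of the 95% interval of the difference was 0.55, so differences in the UV effect below about that size could not be told from 0 for a typical probe set even before adjustment.

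Among the 15 largest rises in sng1, the change in WT lay between 1.93 and 4.11 and in tt4 between 1.42 and 6.11, and 14 of the 15 were called in each of WT and tt4. For the 15 largest falls, the changes were -3.41 to -1.18 in WT and -2.81 to -1.14 in tt4, again with 14 of 15 called in each. Since the genes were chosen for the size of their change in sng1, their differences from the other genotypes lean toward larger values in sng1. The 95% interval of the difference from WT left out 0 for 2 of the rises and none of the falls, and the smallest adjusted p among the 30 genes was 1. For UGT84A1, sng1 minus WT was 0.12 (95% interval -0.56 to 0.81) and sng1 minus tt4 was 0.23 (-0.45 to 0.92). For CHIL the differences were 0.45 (-0.67 to 1.58) and 1.34 (0.21 to 2.46), with adjusted p = 1 and 0.906. HYH differed from WT by 0.07 (-1.05 to 1.19), GR1 by 0.04 (-0.74 to 0.81) and PRK by -0.13 (-0.56 to 0.30). These intervals do not show that the genotypes respond alike.

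**Figure D5:**
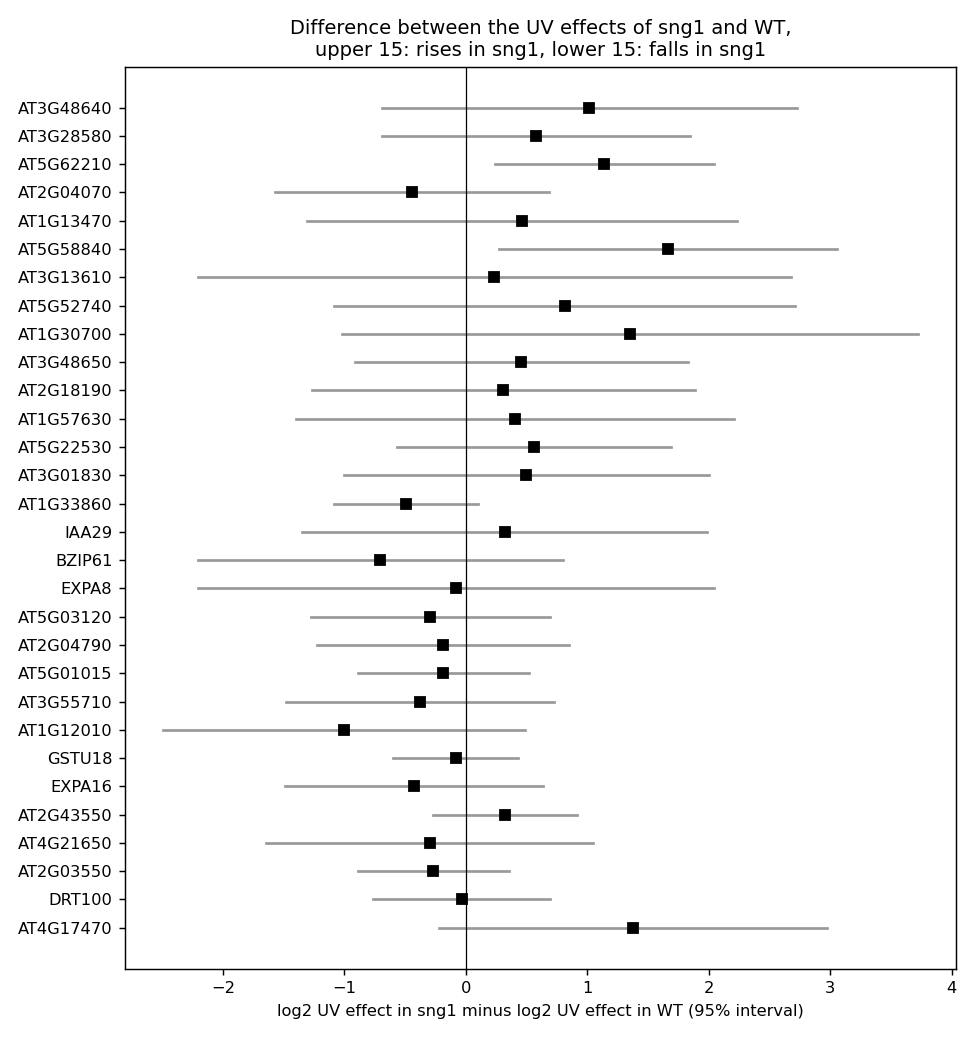
Difference of the UV effect in sng1 from that in WT (x axis, log2) for the 15 largest rises (upper) and 15 largest falls (lower) in sng1, with lines for 95% intervals that are not adjusted for the number of genes. Intervals of AT5G62210 and AT5G58840 lie above 0, and the other 28 hold 0.

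A few genes outside the named ranks had small unadjusted p values for the difference from WT, and they were chosen after their values were seen. AT5G55570 read 7.27, 7.5 and 6.57 under UV and 4.53, 5.01 and 5.01 in CO in sng1, a rise of 2.26 ± 0.27 (adjusted p = 0.000106), against changes of 0.39 in WT and 0.88 in tt4. Its difference from WT was 1.88 (95% interval 1.06 to 2.70, unadjusted p = 0.000269, adjusted p = 1 in limma). SCPL43 changed by -0.14 in WT and 0.03 in tt4, and its difference from WT was 0.95 (0.51 to 1.40, unadjusted p = 0.000444, adjusted p = 1 in limma). The smallest unadjusted p values for the difference from WT were those of AT4G22510 and AT3G58050. AT4G22510, at the floor in all sng1 CO plants, changed by 0.60 in sng1 and -0.64 in WT. Its difference was 1.25 (0.82 to 1.67, unadjusted p = 2.53e-05, adjusted p = 0.575 in limma). AT3G58050 rose less in sng1, by 0.24 against 0.45 in WT. That difference was -0.22 (-0.30 to -0.14, unadjusted p = 5.38e-05, adjusted p = 0.612 in limma). None of these differences passed the test over all probe sets. Against tt4, 1 probe set passed (0.0044%), which has no gene listed (1236 probe sets, 5.43%, at an unadjusted p under 0.05).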

How the data were processed

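The deposited values were intensities, 1 linear signal per probe set and array from an Affymetrix array hybridized with cRNA made from 10 µg of total RNA, per the labels. The sources used here give neither the software and its background method nor a genome build. In the authors' values the mean without the outer 2% was 500 on every array, and medians were 170 to 184 on the sng1 arrays. Control probe sets (64) were left out. All 18 arrays were quantile normalized (limma 3.58.1, R 4.3.3), floored at 16 (log2 of 4), logged and fitted with 6 group means and eBayes, with Benjamini-Hochberg adjustment over 22746 probe sets. Interactions tested differences between UV effects. The plan foresaw log2 values and held this rule for linear ones. On each sng1 array, 17.55% of probe sets were at the floor, and the number of arrays limits the precision.

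Genes were named through a supplied annotation (13513 probe sets with 1 gene, 503 with several, 8730 not listed) and RefSeq loci of TAIR10.1, with no coordinates. Named genes are the 15 largest rises and falls among called probe sets with 1 gene and groups that did not overlap, and up to 4 list members with the smallest adjusted p; the text takes fewer, and other names (CCOAMT, STOMAGEN, AOP1, GH9C2, CRR42, NdhN, NdhS, RALFL33, SCPL27, SCPL43, TUA1, HCT, atpI, rbcL, UGT71B6, UGT73B5, UGT76C1, UGT78D1, AT5G55570) and the families by symbol stem were picked with values in view. AT4G22510 and AT3G58050 were also named with values in view. The comparison and the gene lists were chosen with earlier results of these data known. The fits were tested on simulated data. Alternatives were other scalings, floors, filters, variance settings, a replicate block and leaving out each array.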

Additional observations from a re-analysis of the deposited data

Results flagged for a closer look

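One probe set with no gene in the annotation differed in its UV effect between sng1 and tt4. In sng1 it read 13.06, 13.15 and 12.97 under UV and 9.28, 8.30 and 7.93 in CO, a rise of 4.56 (adjusted p = 6.2e-07, limma). In WT it read 13.00, 13.09 and 13.20 against 8.95, 8.75 and 9.21, a rise of 4.13. In tt4 it read 7.31, 7.5 and 7.79 under UV and 7.93, 8.05 and 8.10 in CO, a change of -0.49 (adjusted p = 0.189). The difference between the UV effects of sng1 and tt4 was 5.05 (95% interval 4.27 to 5.83, adjusted p = 9.61e-05, limma), and this interaction test set it apart. It ran from 4.76 to 5.44 over the alternatives, and was past the threshold in each, with a largest adjusted p of 0.00144.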

How the results depend on the processing

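The count of UV calls in sng1 was 3881 to 7748 under the 16 alternatives, against 5350: the lowest was without sng1_CO 2 and the highest with array weights. Of these calls, 47.5% (values as deposited) to 58.7% (median centring) were higher, against 50.5%. Of 233 called gene results, 150 stayed called under every alternative and none of all 385 reversed. The count of probe sets with another UV effect in sng1 than in WT was 0 to 3 with 1 sng1 array left out (3 without sng1_UV 2), and in the other alternatives it stayed at 0. Against tt4 it was 1 to 4 with 1 array left out (4 without sng1_UV 1 or sng1_UV 2), and 2 under median centring, a floor of 64, the filter on dim probe sets and the replicate block, against 1; the cause was not tested. With the replicate number as a block there were 5226 UV calls. The numbers gave no sign of pairing: deviations of same-numbered arrays correlated at -0.365 to 0.391, and those of other pairs at -0.414 to 0.468. The prior had 0.748 degrees of freedom, and 1201 probe sets were at the floor on all arrays; estimating it without them, an alternative chosen after seeing the data, gave 5349 calls. Correction of the background was not run. Dim probe sets limit the folds: with a floor of 64, the change of NDB4 was 0.99 (adjusted p = 0.0506) and that of AT1G30700 was 1.32 (adjusted p = 0.117).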

Other observations

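Several gene groups outside the lists are described here for UV in sng1, and all were chosen after their values were seen. Nuclear genes of the mitochondrial respiratory chain were higher in 6 of 11 probe sets and lower in none (median 0.53, against 11.9% of all probe sets called higher), with 6 calls whichever sng1 array was left out. NDB2, an NADH dehydrogenase on the outer face of the inner membrane, read 10.87, 10.73 and 10.74 under UV and 9.03, 9.04 and 9.0 in CO (1.75 ± 0.27, adjusted p = 0.000574, limma). CYTC-2, a cytochrome c, rose from 9.44, 9.37 and 9.67 to 10.98, 11.33 and 10.73 (1.52 ± 0.38, adjusted p = 0.0113, limma), and SDH1-1, the flavoprotein of succinate dehydrogenase, from 10.92, 10.65 and 10.83 to 11.89, 12.33 and 11.98 (1.27 ± 0.27, adjusted p = 0.00476, limma). Among mitochondrion-encoded genes 4 of 18 probe sets were higher and 1 was lower, with a median of -0.19. The lower one was nad9 (-0.54, adjusted p = 0.0145, limma), a count of 0 without sng1_UV 2 or sng1_CO 2. The higher ones were 1 of cox2 (1.14 ± 0.19, adjusted p = 0.000891, limma) and 3 of the 7 of nad1, whose other 4 ran from -0.22 to 0.10, so nad1 is uncertain.

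Subunits of the nuclear RNA polymerases were higher in 5 of 12 and lower in none (median 0.39, against 11.9% of all probe sets called higher), a count that held whichever sng1 array was left out. NRPA1, the largest subunit of RNA polymerase I, which makes ribosomal RNA, read 9.05, 9.08 and 9.14 under UV and 7.89, 7.80 and 7.97 in CO (1.2 ± 0.15, adjusted p = 0.000147, limma). NRPA2, its second subunit, read 10.37, 10.23 and 10.30 against 9.13, 9.10 and 9.25 (1.14 ± 0.14, adjusted p = 0.000118, limma), and NRPC2, of RNA polymerase III, 9.14, 9.04 and 9.05 against 8.14, 8.08 and 8.01 (1.00 ± 0.18, adjusted p = 0.00176, limma). Hop and Fes co-chaperones, which assist HSP70 and HSP90, were higher in 4 of 6 and lower in none, against the same 11.9%. The higher count was 2 without sng1_UV 1 or sng1_CO 1, and 3 without any other 1 of the sng1 arrays. Fes1A rose from 8.75, 8.82 and 8.79 to 10.33, 10.34 and 10.08 (1.46 ± 0.14, adjusted p = 3.15e-05, limma).

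Of 10 protein sorting genes of the VPS stem, 4 were called higher and 1 lower, against 11.9% and 11.6% of all probe sets, and the higher count was 2 without sng1_UV 2 or sng1_CO 3. VPS60.1, of the membrane-sorting ESCRT machinery, read 9.85, 9.74 and 9.85 against 9.08, 8.95 and 9.20 (0.74 ± 0.08, adjusted p = 6.43e-05, limma). None of 4 cold-responsive genes was called, and they varied widely between single plants: COR15A read 8.87, 10.79 and 9.52 under UV and 12.55, 12.17 and 10.38 in CO (-1.98 ± 1.07, adjusted p = 0.225, limma), and LTI30 read 8.34, 10.79 and 9.21 against 10.09, 8.59 and 8.43 (0.41 ± 1.08, adjusted p = 0.915, limma).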
